A study of Mus musculus with 19 samples.

Results

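Eda2r, Tnfrsf12a and 6 related genes of the tumour necrosis factor (TNF) receptor system were measured in EDL muscle (extensor digitorum longus, a fast hind limb muscle) of mice that model myotonic dystrophy and of wild-type mice. The 6 related genes are the receptors Tnfrsf1a, Tnfrsf1b, Tnfrsf21, Tnfrsf19 and Edar and the ligand Eda. The members are all probe sets of the array annotated to only 1 of these 8 genes, and they number 18 of 45101 probe sets. Eda2r and Tnfrsf12a were chosen by their higher levels in HSALR muscle in this same comparison, so their difference is described and not tested, and the other 6 genes were added as relatives, with results of these data known. HSALR mice (transgenic line 20 b, FVB strain, 19 weeks of age) carry a transgene of the human skeletal actin gene that holds a long CTG repeat, expressed in skeletal muscle fibres from the actin promoter. All 10 HSALR samples come from this line. The 9 wild-type samples are from FVB mice of the same age without the transgene. Each sample was hybridised to 1 Affymetrix array, and the number of arrays limits the precision. The labels do not give the sex of the mice and do not say whether each sample is a separate animal, so p-values cover the spread among these samples alone, and that spread may be technical.

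Receptors of this family sit in the cell membrane, bind trimeric ligands of the TNF family and pass the signal to adaptor proteins, many of which lead to the transcription factor NF-kappaB or to kinases of the stress response. Receptors such as Tnfrsf1a carry a death domain inside the cell, while Eda2r and Tnfrsf12a lack it and recruit TRAF adaptors directly. Eda2r and Edar bind different splice forms of ectodysplasin, the product of Eda, which is known above all from the development of hair, teeth and sweat glands. Tnfrsf12a, also called Fn14, is the receptor of the cytokine TWEAK and is known in skeletal muscle from denervation, injury and wasting, and EDA2R is a known target gene of p53 in human cells.

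The sequences upstream of Eda2r and Tnfrsf12a are shown because, among the 8 members, these genes differed most between the groups. The sequences show how unlike the start regions of the 2 genes are. They come from RefSeq (GRCm38.p6, a C57BL/6J genome, while the mice were FVB), lie on the minus strand at chrX:97377235-97377459 and chr17:23677450-23677699, and are written 5′ to 3′ up to the outermost annotated start of each gene. Capitals mark a TATA box (TATAAA) and GC boxes (GGGCGG), searched on both strands.
Eda2r: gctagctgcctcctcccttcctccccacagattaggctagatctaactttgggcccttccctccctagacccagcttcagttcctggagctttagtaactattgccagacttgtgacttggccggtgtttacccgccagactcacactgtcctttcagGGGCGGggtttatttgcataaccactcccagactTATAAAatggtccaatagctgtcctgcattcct
Tnfrsf12a: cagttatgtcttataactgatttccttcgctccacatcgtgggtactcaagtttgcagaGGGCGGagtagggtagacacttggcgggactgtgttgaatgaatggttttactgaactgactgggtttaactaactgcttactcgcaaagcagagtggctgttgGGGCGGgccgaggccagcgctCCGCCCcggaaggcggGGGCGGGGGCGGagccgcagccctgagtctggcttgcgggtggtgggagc
Motifs were counted in the whole RefSeq window of each gene, from 250 bases before to 50 bases after the start site of the promoter table. For Eda2r this start site lies 25 bases downstream of the end of the printed stretch, because another annotated start lies further out, and for Tnfrsf12a it follows the printed stretch directly. Counted from that site, the window of Eda2r held 1 TATA box beginning at position -58 and 1 GC box at -92. That of Tnfrsf12a held no TATA box and 5 GC boxes, beginning at -191, -87, -66, -50 and -44, the last 2 of them end to end. Of 32851 such windows of all genes, 13.6% held a TATA box and 35.7% a GC box. The GC content was 50.3% for Eda2r and 59.7% for Tnfrsf12a, against a median of 52.7% over all windows. Neither window held the p53 half-site consensus, which 8.36% of all windows held, nor the MEF2 (0.557%) or CArG box (1.63%) consensus. The loose NF-kappaB pattern GGGNNNNNCC, which overlaps GC-rich stretches including GC boxes, was found in both windows and in 50.8% of all windows. Among the windows of the 8 genes, 9 in all because Tnfrsf19 has more than 1 start site, only that of Eda2r held a TATA box. These are matches of letters in a window and not binding sites.

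Levels below are log2(signal + 16) after quantile normalization of the arrays, on which a signal of 0 lies at 4. A level of 1 probe set cannot be set against that of another. To show which members are near background, 86 probe sets of olfactory, vomeronasal and taste receptor genes were used, whose 95th percentile was 6.54. By this measure 9 of the 18 probe sets were near background in both groups: all 5 of Eda, both of Edar, 1 of 2 of Tnfrsf1b and 1 of 3 of Tnfrsf19. The probe sets of Eda2r, Tnfrsf12a, Tnfrsf1a and Tnfrsf21 all lay above it. Tests were run on the 22519 probe sets whose mean was at or above the median of all, 6.09, among them 10 of the 18. The other 8 have values and no test.

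Eda2r was the gene of the set with the largest difference. Its level in HSALR muscle was lowest at 9.27, had a median of 9.50 and was highest at 10.1, against 6.65, 7.32 and 7.59 in wild type. The groups did not overlap, 10 HSALR samples against 9 wild-type samples, with a gap of 1.68 between the groups on the log2 scale. The deposited signals had a median of 762 in HSALR samples and 133 in wild-type samples. The log2 difference was 2.36 ± 0.13 (SE, n = 10 against 9), or 5.13-fold, which ranked 6 among the 22519 probe sets. The SD among samples was 0.30 in HSALR and 0.27 in wild type. Only 1 probe set reads Eda2r, so no other probe set of the array bears on this value. In a bulk sample of muscle, more cells of a type and more RNA per cell cannot be told apart, here and for the genes that follow.

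Tnfrsf12a was read by a pair of probe sets, and the groups did not overlap in either. By the brighter (1418571_at) the level in HSALR samples was 9.58, 9.94 and 10.4 (lowest, median and highest), against 6.88, 8.45 and 9.23 in wild-type samples. By the other (1418572_x_at, whose suffix marks probes that can match further transcripts) it was 9.20, 9.57 and 10.5 in HSALR samples, against 7.66, 7.94 and 8.81 in wild-type samples. All 10 HSALR samples were higher than every wild-type sample, but the gap was only 0.35 and 0.38 between the groups, and wild-type replicates 4 and 5 were the highest of their group at both probe sets. The log2 difference was 1.71 ± 0.26 and 1.64 ± 0.19 (SE, n = 10 against 9), or 3.27-fold and 3.11-fold. At the brighter probe set the SD was 0.33 in HSALR and 0.84 in wild type. Wild-type replicates 6 and 7 were lowest there, at 6.88 and 6.97, while the other probe set read 7.86 and 7.94 in these samples and had an SD of 0.42 over the wild-type samples. For all tested probe sets, 0.83% had every HSALR sample above every wild-type sample, as 3 member probe sets of 2 genes did. Because Eda2r and Tnfrsf12a were chosen for this difference, nothing is read from that count.

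**Figure D1:**
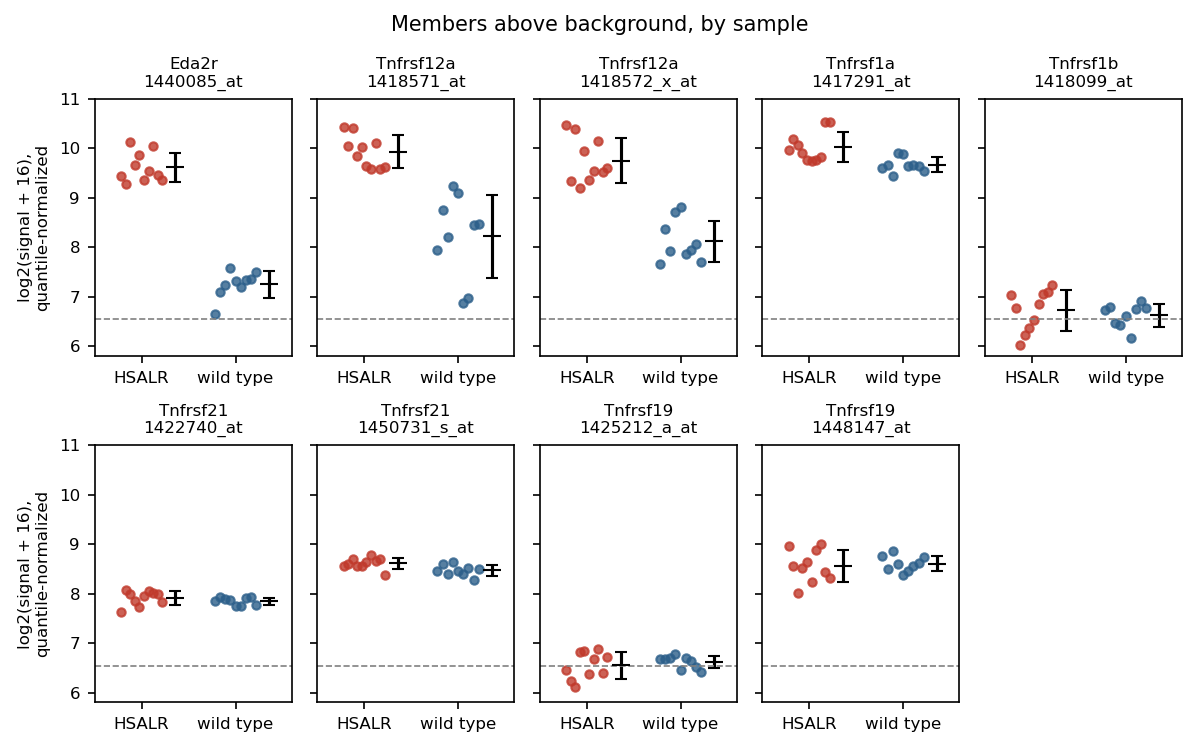
Level, as quantile-normalized log2(signal + 16), of the 9 member probe sets above background, with 1 point per sample for 10 HSALR (red, left) and 9 wild-type (blue, right) samples, the mean and SD as a bar beside them, and the background level of 6.54 as a dashed line. All HSALR points of Eda2r and Tnfrsf12a lie above all wild-type points, while the groups overlap in the other 6 probe sets.

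Of the 6 related genes, 1 of 7 tested probe sets passed at a false discovery rate of 0.05 in limma, against 14.8% of all tested probe sets in either direction (6.47% higher and 8.37% lower). It was that of Tnfrsf1a, the death domain receptor through which TNF acts on most cells. Its level was 9.74, 9.93 and 10.5 in HSALR samples (lowest, median and highest), against 9.43, 9.64 and 9.91 in wild-type samples. The groups overlapped, and 6 of 10 HSALR samples exceeded every wild-type sample. The log2 difference was 0.36 ± 0.11 (SE; limma adjusted p = 0.0299), or 1.28-fold. HSALR replicates 9 and 10 stood apart at 10.5 each, where the highest of the other 8 HSALR samples was 10.2. Without these 2 samples the log2 difference was 0.23 ± 0.08 and missed the threshold (limma adjusted p = 0.0639). It also missed the threshold on the values as deposited (log2 difference 0.41, limma adjusted p = 0.115), on which 0 of the 7 passed against 5.06% of all, without wild-type replicate 1 (0.35, adjusted p = 0.0512) and without wild-type replicate 3 (0.33, adjusted p = 0.0605).

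The same pair of samples, HSALR replicates 9 and 10, was high in markers of macrophages. The mean level of 14 of 15 listed macrophage markers, those bright enough to test, ranged from 8.16 to 10.1 in HSALR samples and from 8.02 to 8.73 in wild-type samples, and in HSALR replicates 9 and 10 it was 10.1 each, against at most 9.05 in the other HSALR samples. Their summed normalized signal ranged from 5735 to 24544 in HSALR samples and from 5628 to 9066 in wild-type samples, and no marker was at 0. Of the 14, 4 rose and 0 fell in limma, Cd68, Lgals3, Ctss and Tyrobp, against 6.96% higher and 8.51% lower of all 11533 genes tested. Without replicates 9 and 10, 3 rose (Tyrobp then had an adjusted p of 0.112), and as deposited 2 rose (0.0566 for Ctss and 0.113 for Tyrobp). Leaving out 1 sample at a time gave 3 to 10, the 10 without HSALR replicate 5. The median log2 difference of the list was 0.60, and 0.31 without replicates 9 and 10, against -0.01 and 0.0075 over all genes. For 10 of 12 listed markers of fibro-adipogenic progenitors and fibroblasts the mean level was 12.11 and 12.04 in HSALR replicates 9 and 10, against at most 10.95 in the other HSALR samples and from 10.1 to 10.9 in wild-type samples. Of these 10, 1 rose and 0 fell, and the median log2 difference of the list was 0.39, and 0.05 without replicates 9 and 10. The 1 that rose was Pdgfra, a receptor that marks fibro-adipogenic progenitors (0.69 ± 0.16, limma adjusted p = 0.006), with 8 of 10 HSALR samples above every wild-type sample. Pdgfra kept its call without replicates 9 and 10 (0.53, adjusted p = 0.0133) and as deposited (adjusted p = 0.0276). Of 5 tested satellite cell markers, 1 rose and 0 fell, with a median log2 difference of 0.01. It was Sdc4 (0.36 ± 0.11, limma adjusted p = 0.0365). Of 8 tested endothelial markers, 0 rose and 1 fell, with a median of -0.05. It was Eng (-0.22 ± 0.06, limma adjusted p = 0.0166). Sdc4 lost its call without replicates 9 and 10 (adjusted p = 0.115), and both lost it as deposited (0.0908 for Sdc4 and 0.4 for Eng). HSALR replicates 9 and 10 were also the most alike of all pairs (Spearman correlation 0.958 over probe sets, while the best match of any other sample reached 0.944 to 0.953). The part of these cells in the level of Tnfrsf1a was not tested. In Eda2r and Tnfrsf12a replicates 9 and 10 did not stand apart. Eda2r was at 9.45 and 9.37 in them and Tnfrsf12a, by its brighter probe set, at 9.58 and 9.62, in the lower part of the HSALR range. By the other probe set Tnfrsf12a was at 9.53 and 9.60 in them, on either side of the HSALR median of 9.57. Without these 2 samples the log2 difference was 2.41 ± 0.13 for Eda2r. For Tnfrsf12a it was 1.79 ± 0.29 by the brighter and 1.68 ± 0.21 by the other probe set.

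**Figure D2:**
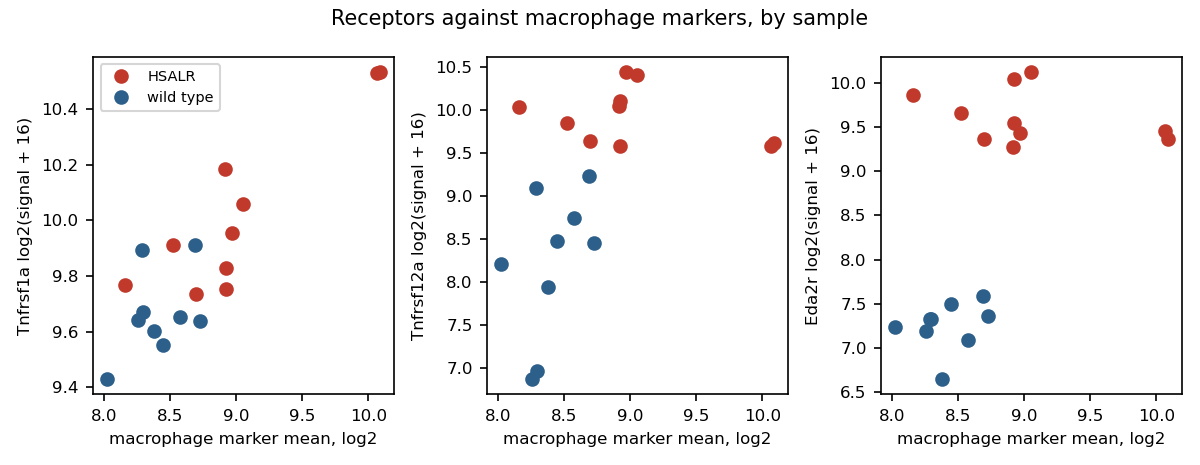
Level of Tnfrsf1a, Tnfrsf12a and Eda2r (vertical axes, quantile-normalized log2(signal + 16)) against the mean level of 14 macrophage markers (horizontal axes, log2), with 1 point per sample for 10 HSALR (red) and 9 wild-type (blue) samples. HSALR replicates 9 and 10 lie at the far right, highest for Tnfrsf1a and within the HSALR range for Tnfrsf12a and Eda2r.

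No other receptor above background passed. Tnfrsf21, a death domain receptor also called DR6, was at 8.38, 8.62 and 8.78 in HSALR samples by its brighter probe set, against 8.27, 8.47 and 8.64 in wild-type samples. The groups overlapped in most of their range. The log2 difference was 0.14 ± 0.06, with a 95% interval of 0.02 to 0.27 and a limma adjusted p of 0.116, and at the other probe set it was 0.06 ± 0.06 (interval -0.07 to 0.19). Tnfrsf1b, the TNF receptor without a death domain that is found mainly on immune and endothelial cells, was at 6.03, 6.82 and 7.23 in HSALR samples, against 6.16, 6.73 and 6.91 in wild-type samples. Its log2 difference was 0.09 ± 0.15 (interval -0.21 to 0.40, limma adjusted p = 0.713), and these levels lie close to the background of 6.54. Tnfrsf19, also called TROY and close to Edar in sequence, was at 8.02, 8.54 and 8.996 in HSALR samples by its brightest probe set, against 8.39, 8.60 and 8.86 in wild-type samples. The HSALR samples spread more widely on both sides, with 3 above and 3 below all wild-type samples, and the SD was 0.32 in HSALR and 0.15 in wild type. The log2 difference was -0.05 ± 0.11 (interval -0.29 to 0.19, limma adjusted p = 0.811), and at the dimmer probe set that was tested it was -0.07 ± 0.10 (limma adjusted p = 0.671).

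The ligand of Eda2r and its other receptor were near background throughout. The 5 probe sets of Eda had mean levels from 4.62 to 6.43 in HSALR samples and from 4.56 to 6.29 in wild-type samples. The brightest of them was the only one tested, with a log2 difference of 0.14 ± 0.17 (limma adjusted p = 0.636). The groups overlapped in each. The pair for Edar averaged 4.36 ± 0.10 and 4.18 ± 0.20 in HSALR samples and 4.35 ± 0.09 and 4.19 ± 0.23 in wild-type samples (SD, n = 10 and 9). The values of Edar are barely above the floor of 4, so a difference in its transcripts was not detectable at these levels. For the tested probe set of Eda the 95% interval of the log2 difference was -0.21 to 0.48. The array does not show that either transcript is absent.

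**Figure D3:**
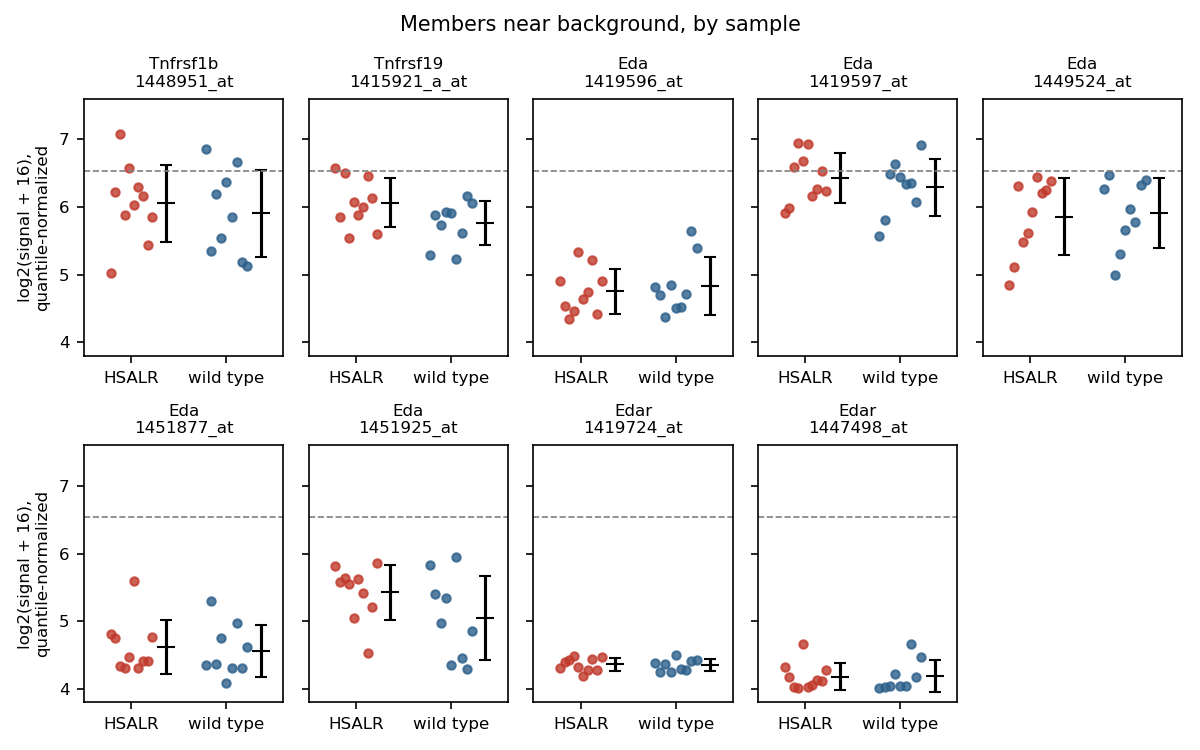
Level, as quantile-normalized log2(signal + 16), of the 9 member probe sets near background, with 1 point per sample for 10 HSALR (red, left) and 9 wild-type (blue, right) samples, the mean and SD as a bar beside them, and the background level of 6.54 as a dashed line. Both probe sets of Edar lie near the floor of 4 and all means lie below the dashed line.

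Within each group it was asked whether Eda2r and Tnfrsf12a varied together from sample to sample, which does not depend on the difference between groups. Among the 10 HSALR samples Pearson's r was 0.49 (permutation p = 0.146, 2-sided, adjusted p = 0.541 over 10 relations) and Spearman's rho 0.27 (permutation p = 0.447, adjusted p = 0.866). Among the 9 wild-type samples r was 0.30 (exact permutation p = 0.436, adjusted p = 0.57) and rho 0.45 (exact permutation p = 0.23, adjusted p = 0.6248). Without the 2 samples farthest from the median of Eda2r, r was 0.11 in HSALR and 0.11 in wild type. No relation between the 2 receptors passed in either group. In these relations Tnfrsf12a was read by its brighter probe set alone, and its other probe set was not tested. None of the 8 relations of either gene with the mean of the macrophage or fibroblast markers passed either, by permutation tests of r or of rho, and none had an unadjusted p under 0.05. The closest was Tnfrsf12a with the fibroblast markers among wild-type samples (r = 0.66, exact permutation p = 0.0551, adjusted p = 0.541; rho = 0.55, exact permutation p = 0.133), with r = 0.50 without the 2 farthest samples.

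The genes whose levels ran most closely with each receptor were found over all 19 samples after the mean of each group was taken off, among 11533 genes. They are given as a description, since the highest of so many correlations is high in any data. For Tnfrsf12a the closest were Csrp3, the muscle LIM protein of the Z-disc (r = 0.82), and Ankrd1, an ankyrin repeat protein of the sarcomere induced by stretch (r = 0.76). Togaram2 followed with r = 0.76, Xirp1, an actin-binding protein of muscle attachment sites, with 0.75, and the kinase gene Stk40 with 0.73. Togaram2 followed Tnfrsf12a mainly among wild-type samples, with r = 0.26 among HSALR samples and 0.83 among wild-type samples, while the other 3 had r from 0.67 to 0.88 among HSALR samples and from 0.78 to 0.84 among wild-type samples. Csrp3 followed Tnfrsf12a in both groups, with r = 0.94 among HSALR samples and 0.87 among wild-type samples, and the sample with its highest level, HSALR replicate 3 at 13.4, was also among the 2 highest for Tnfrsf12a. By the other probe set of Tnfrsf12a, r over the 19 samples was 0.70 for Csrp3 and 0.74 for Ankrd1 but 0.57 for Xirp1, 0.37 for Stk40 and 0.26 for Togaram2. Csrp3 was higher in HSALR by 1.70 ± 0.26, Ankrd1 by 1.74 ± 0.28 and Xirp1 by 0.94 ± 0.18 on the log2 scale, while Stk40 was lower (-0.47 ± 0.10), with limma adjusted p of 0.0002, 0.000287, 0.00141 and 0.00455. Togaram2 did not pass (0.21 ± 0.21, adjusted p = 0.553).

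For Eda2r the closest were Npnt, a matrix ligand of integrins (r = 0.83), and Ncam1, the neural cell adhesion molecule that muscle fibres make after denervation (r = 0.73). Fam120c, Ppp4r2, a regulatory subunit of protein phosphatase 4, and Prxl2c followed with 0.73, 0.73 and 0.72. None of these is among the 5 closest to Tnfrsf12a. Npnt had a log2 difference of 0.46 ± 0.16 and did not pass (limma adjusted p = 0.0525), and its r with Eda2r was 0.88 among HSALR samples and 0.75 among wild-type samples. Ncam1 and Fam120c rose by 0.56 ± 0.10 and 0.24 ± 0.06 (limma adjusted p = 0.000821 and 0.00571). The levels of Ncam1 lie close to the background of 6.54, with a mean of 6.96 in HSALR samples and 6.41, below it, in wild-type samples. Ppp4r2 and Prxl2c differed by 0.08 ± 0.06 and -0.08 ± 0.09 and did not pass (adjusted p = 0.352 and 0.559).

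**Figure D4:**
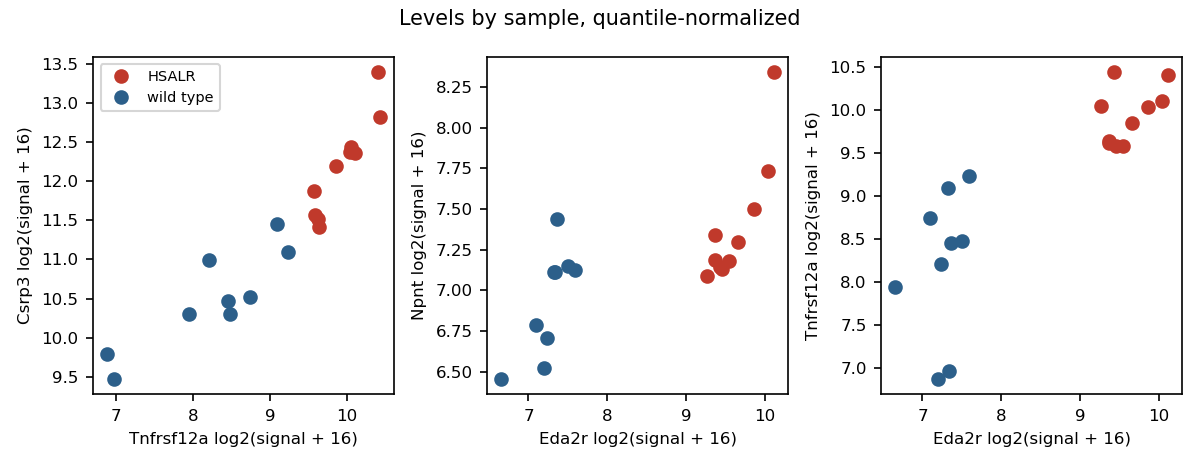
Levels (quantile-normalized log2(signal + 16)) of Csrp3 against Tnfrsf12a, of Npnt against Eda2r and of Tnfrsf12a against Eda2r, with 1 point per sample for 10 HSALR (red) and 9 wild-type (blue) samples. Tnfrsf12a is shown by its brighter probe set. Csrp3 rises with Tnfrsf12a within both groups (r = 0.94 in HSALR, 0.87 in wild type), while Tnfrsf12a and Eda2r form separate groups with no relation that passed within either.

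The rest of the receptor family and its signalling genes were counted with the brightest tested probe set per gene, where 6.96% of 11533 genes rose and 8.51% fell. The shares were 5.71% and 6.06% without HSALR replicates 9 and 10, and 3.11% and 2.31% on the values as deposited. Of 21 other receptors listed, 9 were bright enough to test. None rose, and 2 fell: Tnfrsf4, a costimulatory receptor of T cells also called OX40 (log2 difference -0.39 ± 0.12, limma adjusted p = 0.0342), and Relt (-0.31 ± 0.10, adjusted p = 0.0387). Fas, the classical death receptor, had 0.38 ± 0.15 (adjusted p = 0.0956), and Ltbr, the lymphotoxin receptor, -0.0035 ± 0.10 (adjusted p = 0.988). The median log2 difference over the 9 was 0.04, against -0.01 over all genes tested. Neither fall was called without HSALR replicates 9 and 10 (adjusted p = 0.0708 and 0.0705) or as deposited (0.204 and 0.211). Of 17 listed ligands 13 had a probe set of their own, and only Tnfsf10, Tnfsf13b and Cd40lg were bright enough to test. None passed in limma or at an unadjusted p under 0.05 (log2 differences -0.20 to 0.02). Tnfsf13b and Cd40lg were near background, with means of 6.12 and 6.22 in HSALR samples and 6.13 and 6.20 in wild-type samples. Tnfsf10 lay close to the background of 6.54, at 6.65 in HSALR samples and 6.85 in wild-type samples. The ligand of Tnfrsf12a, TWEAK, was among the 17 listed but not among those tested, so its level is not given here.

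Among 20 tested adaptor and proximal signalling genes, 0 rose and 2 fell. An unadjusted limma p under 0.05 was reached by 11 of them, and by 3543 of all 11533 genes tested. Tab2, an adaptor of the kinase TAK1, was at 10.92, 11.06 and 11.27 in HSALR samples (lowest, median and highest), against 11.31, 11.4 and 11.51 in wild-type samples. All 10 HSALR samples lay below all wild-type samples, as at 1.03% of tested probe sets, by a small margin (log2 difference -0.34 ± 0.06, limma adjusted p = 0.000463). Tnip1, which binds the ubiquitin editor encoded by Tnfaip3, had a log2 difference of -0.33 ± 0.06 (adjusted p = 0.000891). Both calls were lost on the values as deposited (adjusted p = 0.1 and 0.114), and both held without HSALR replicates 9 and 10 (adjusted p = 0.00167 and 0.00237), where Cyld, a deubiquitinase that restrains NF-kappaB, also rose (0.21, adjusted p = 0.0402, against 0.107 with all samples). Of 8 tested subunits, inhibitors and kinases of NF-kappaB, Nfkbia rose, the inhibitor that NF-kappaB itself induces. It was at 11.19, 12.02 and 12.44 in HSALR samples, against 11.13, 11.53 and 11.92 in wild-type samples, and 8 of 10 HSALR samples exceeded every wild-type sample (log2 difference 0.48 ± 0.14, limma adjusted p = 0.0251). Its call was lost without HSALR replicates 9 and 10 (adjusted p = 0.0819) and as deposited (0.0512). Map3k14, the kinase known as NIK, through which the noncanonical branch is activated, had a log2 difference of -0.0087 ± 0.09, Rela, a subunit of NF-kappaB, -0.0059 ± 0.06 and Nfkb2, the subunit of the noncanonical branch, 0.03 ± 0.23, and none of these passed (limma adjusted p = 0.963, 0.962 and 0.946).

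Of 10 tested genes induced by NF-kappaB, 0 rose and Tnfaip2 fell (log2 difference -0.38 ± 0.12, limma adjusted p = 0.0328), with a median difference of 0.21 over the list, and 0.10 without HSALR replicates 9 and 10. Of 5 genes that govern the shedding of TNF and its receptors, Rhbdf1, a partner of the protease Adam17, rose by 0.19 ± 0.06 (adjusted p = 0.0406), and Adam17 itself had 0.22 ± 0.12 (adjusted p = 0.204). Rhbdf1 was not called without HSALR replicates 9 and 10 (adjusted p = 0.0805) or as deposited (0.154), and Tnfaip2 not as deposited (0.191).

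Of 12 tested genes induced by p53, 5 rose and 0 fell, against 6.96% and 8.51% of all genes tested. The median log2 difference was 0.13, against -0.01 over all genes tested. Phlda3, an inhibitor of the kinase Akt, was at 10.5, 10.9 and 11.1 in HSALR samples (lowest, median and highest), against 9.83, 9.98 and 10.3 in wild-type samples. Every HSALR sample was above every wild-type sample, as at 0.83% of tested probe sets (log2 difference 0.80 ± 0.09, limma adjusted p = 1.17e-05). Cdkn1a, the cell cycle inhibitor p21, was higher by 0.94 ± 0.15 (adjusted p = 0.000265), and 8 of 10 HSALR samples exceeded every wild-type sample. Bbc3, which promotes apoptosis, and Trp53inp1, a p53-induced nuclear protein, rose by 0.31 ± 0.10 and 0.64 ± 0.21 (adjusted p = 0.0404 and 0.0424), and Zmat3, an RNA-binding protein, by 0.20 ± 0.07 (adjusted p = 0.0476). Mdm2, the ligase that degrades p53 and is itself a target, did not pass (-0.05 ± 0.17, adjusted p = 0.863). Without HSALR replicates 9 and 10, and also as deposited, 2 of the 12 rose, Phlda3 and Cdkn1a, where 5.71% and 3.11% of all genes rose.

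Genes of muscle loss and of denervation were set beside the receptors because Tnfrsf12a and Eda2r are known from these states. Of 9 tested ubiquitin ligases of muscle atrophy, 0 rose, and Fbxo31 and Fbxo21 fell by 0.46 and 0.27 on the log2 scale (SE 0.08 and 0.09, limma adjusted p = 0.00113 and 0.0471). Without HSALR replicates 9 and 10, and as deposited, Fbxo31 passed (adjusted p = 0.00453 and 0.023) and Fbxo21 did not (0.128 and 0.232). The best known of them, Trim63 and Fbxo32, had 0.25 ± 0.12 and -0.22 ± 0.20 and did not pass (adjusted p = 0.157 and 0.5). Of 13 tested denervation and regeneration genes, 3 rose and 0 fell, among them Ankrd1 and Ncam1, already described, and Myog, a myogenic transcription factor (0.80 ± 0.23, adjusted p = 0.022, and 0.0571 without HSALR replicates 9 and 10). All lists were chosen with earlier results of these data known.

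**Figure D5:**
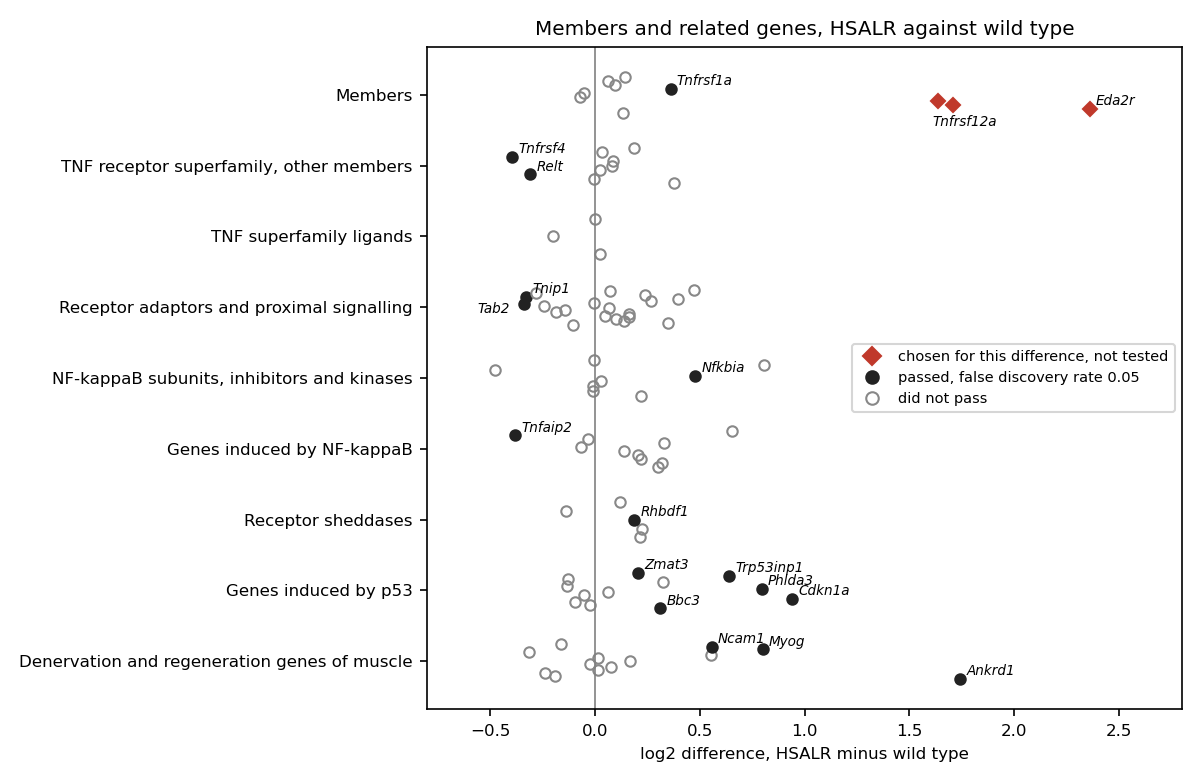
Log2 difference, HSALR minus wild type, of the tested member probe sets and of each tested gene in 8 lists, with 1 symbol per probe set or gene (red diamonds for Eda2r and Tnfrsf12a, which were chosen for this difference, filled circles for genes that passed at a false discovery rate of 0.05, open circles for those that did not). Eda2r at 2.36 and Tnfrsf12a at 1.71 and 1.64 lie far to the right of the other receptors, whose highest value is 0.38 for Fas.

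The chromosomal neighbours of both genes were measured in the same fit, in which 6.96% of all 11533 genes tested rose and 8.51% fell. Of the 10 nearest measured genes around Eda2r on the X chromosome, 8 were bright enough to test and 1 rose, Vsig4, a complement receptor of tissue macrophages (log2 difference 0.58 ± 0.16, limma adjusted p = 0.0161). The log2 differences of the others ranged from -0.14 for Las1l to 0.23 for Msn. Of the 10 around Tnfrsf12a on chromosome 17, 5 were tested and 2 rose, Thoc6, a subunit of an mRNA export complex, by 0.30 ± 0.08 and Hcfc1r1 by 0.29 ± 0.09 (adjusted p = 0.0156 and 0.0265). These differences are smaller than those of Eda2r and Tnfrsf12a, but both were chosen for their difference, so nothing is read from that. As Eda2r is X-linked, the sex-linked genes were read too: of 4 tested, 0 passed in limma and 2 had an unadjusted p under 0.05, as did 3543 of all 11533 genes tested. Eif2s3y, of the Y chromosome, averaged 9.55 in HSALR samples and 9.40 in wild-type samples, and Xist averaged 6.42 in HSALR samples and 6.60 in wild-type samples, close to the background level of 6.54. In every sample Eif2s3y, Kdm5d and Uty, all of the Y chromosome, lay above that level. Their lowest values were 9.19 in wild type for Eif2s3y, and 7.48 and 8.02 in HSALR for Kdm5d and Uty. Xist was at most 6.70 in HSALR samples and 6.98 in wild-type samples.

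The arrays differed in brightness, with medians of the deposited signal from 39.7 to 63.6 in HSALR samples and from 49.6 to 71.9 in wild-type samples, which is why they were normalized. The log2 ratio of 3′ to 5′ signal of the actin control probe sets was 0.00 ± 0.07 in HSALR and 0.10 ± 0.08 in wild type (SD, n = 10 and 9), and that of Gapdh -0.22 ± 0.02 and -0.23 ± 0.03. With the mean of both ratios as a covariate the log2 differences of Eda2r and Tnfrsf12a were 2.32 and 1.73, and that of Tnfrsf1a 0.48 (limma adjusted p = 0.00819). The 8 muscle fibre markers had a mean level between 13.6 and 13.7 in every sample, near the top of the scale at 13.9, so they can show little difference. Of them Atp2a1, the calcium pump of fast fibres, fell (-0.16 ± 0.05, limma adjusted p = 0.0381), with 7 of 10 HSALR samples below every wild-type sample, and lost its call without replicates 9 and 10 (adjusted p = 0.0616) and as deposited (0.322).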

How the data were processed

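Total RNA from mouse EDL muscle was hybridised as biotin-labelled cRNA to 1-colour Affymetrix arrays, 1 per sample, for 10 HSALR and 9 wild-type samples. The deposited values are the authors' linear signal intensity per probe set, not log-transformed. The submitters' processing notes name GCOS 1.4; the algorithm and any scaling were not given in the sources used here.

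From these, 64 control probe sets were left out and log2(signal + 16) was quantile normalized between arrays over 45037 probe sets, because the deposited signals were not at a common level (trimmed means 157 to 244). Probe sets with a mean at or above the median (6.09) were tested with limma 3.58.1 (R 4.3.3), HSALR minus wild type, with Benjamini-Hochberg adjustment over 22519 probe sets or, per gene by the brightest probe set, 11533 genes. Values as deposited were an alternative, beside others in scaling, pseudocount (1 and 64), filter, weights, probe set choice, block and samples. On simulated data of 22519 probe sets with 50 changed at each fold, 36 were called at 1.5-fold and 49 at 2-fold, with 6 false calls among the unchanged ones. The simulated noise was independent between probe sets. In the real data samples can share variation over many genes, so these figures do not give the error rate there.

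Of 45037 probe sets, 34945 had 1 gene symbol, 932 several and 9160 are unnamed here. Promoters are RefSeq's, and all 8 members matched. Correlations within groups used exact or, at 10 values, 100000-resample permutation tests in Python 3.11.15.

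The members and lists were chosen with earlier results of these data known. Named were all 8 members, for each list the called genes of smallest p (at most 4), the measured neighbours and the 5 closest genes by correlation. Other genes named were chosen after their values were seen.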

Additional observations from a re-analysis of the deposited data

Results flagged for a closer look

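Of 36 groups of sample values of the members examined, 2 held a sample far from the others, and chance flags about 1 group in 20. HSALR replicate 6 read 5.59 at a probe set of Eda (1451877_at), where the other 9 HSALR samples lay between 4.30 and 4.81. HSALR replicate 5 read 4.67 at a probe set of Edar (1447498_at), where the others lay between 4.02 and 4.33. Both probe sets are near background and enter no test.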

How the results depend on the processing

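Eda2r and both probe sets of Tnfrsf12a were higher in HSALR under every alternative run. Eda2r moved beyond the replicate spread only with a pseudocount of 64 (2.05), and without each sample in turn it ranged from 2.28 to 2.40, Tnfrsf12a from 1.54 to 1.83 and from 1.56 to 1.72. Tnfrsf1a kept its direction but missed the threshold with array weights (0.27, limma adjusted p = 0.0589), median centring (0.37, 0.0507), no filter (0.36, 0.0638), as deposited (0.41, 0.115) and without HSALR replicates 9 and 10 (0.23, 0.0639), and ranged from 0.30 to 0.39 without single samples. Far from any threshold, Tnfrsf1b turned to -0.016 without replicates 9 and 10, and Tnfrsf19 to 0.0055 as deposited, with -0.10 to 0.0091 without single samples. The causes were not tested.

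The replicate numbers did not pair the samples: of 9 pairs, 2 had a correlation of deviations over 0.1 (range -0.23 to 0.13), and 1 HSALR sample correlated best with its own number. With the number as a block, 2051 probe sets (906 higher, 1145 lower) and 1109 genes (502 higher, 607 lower) passed, against 3341 (1457 higher, 1884 lower) and 1784 (803 higher, 981 lower) without it. Tnfrsf1a then had 0.30 (limma adjusted p = 0.108), 1 other receptor passed, and 0 NF-kappaB-induced genes and 0 sheddases did. As deposited, 1140 probe sets (645 higher, 495 lower) and 625 genes (359 higher, 266 lower) passed, so the larger share turned to higher. Without single samples, 2633 to 3814 probe sets and 1415 to 2069 genes passed.

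Of the lists, other receptors had 0 genes past the threshold as deposited, without replicates 9 and 10 and with the 3′ to 5′ ratio as a covariate (added after seeing the data), and 1 without the filter, against 2. Adaptors had 5 with that covariate, 4 with weights, 0 as deposited and 5 by the probe set with the smallest p, against 2. NF-kappaB genes had 2 with the filter at the brightest 11260 probe sets and 0 without the filter, as deposited and without replicates 9 and 10, against 1. NF-kappaB-induced genes had 0 when centred, without the filter and as deposited and 2 by the smallest p, against 1. Sheddases had 2 with the covariate and 0 with weights, centring, no filter, as deposited and without replicates 9 and 10, against 1. Genes induced by p53 had 2 when centred, without the filter, as deposited and without replicates 9 and 10, and 3 among those 11260 probe sets, against 5. Atrophy ligases had 1 as deposited, without replicates 9 and 10, with the covariate, weights, centring, no filter and the brightest 11260 probe sets, against 2. Without single samples the ranges were 0 to 2 for other receptors, 2 to 4 for adaptors, 0 to 2 for NF-kappaB, 0 to 1 for its induced genes, 0 to 1 for sheddases, 2 to 5 for p53 and 1 to 3 for atrophy ligases.

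None of the correlations with marker lists passed under any setting, but in HSALR the sign of most turned. As deposited, r was 0.21 and 0.26 for Eda2r with macrophage and fibroblast markers and 0.15 and 0.11 for Tnfrsf12a. Without replicates 9 and 10, r was 0.19 for Eda2r with fibroblast markers and 0.31 and 0.28 for Tnfrsf12a with macrophage and fibroblast markers, while Eda2r with macrophage markers kept its sign (-0.058). Signal near background limits Eda, Edar and the dim probe sets of Tnfrsf1b and Tnfrsf19.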
